A study of Mus musculus with 33 samples.

Results

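The D-type cyclins Ccnd1, Ccnd2 and Ccnd3, the E-, A- and B-type cyclins Ccne1, Ccne2, Ccna2 and Ccnb1, and the cyclin-dependent kinase (CDK) inhibitors Cdkn1b, Cdkn2a and Cdkn2b were followed in mouse embryonic stem cells (mESCs) and in embryoid bodies (EBs) made from them. These 10 genes, of 37991 in the count tables, were chosen by name for the G1 machinery and with earlier results of these data known. Among these was the lower level of Ccnd2 in Neil2-mutant mESCs. The Neil2 comparison in mESCs is therefore given as values, with no test. The control mESC libraries entered that result as well, so tests of Ccnd2 against them are not independent of the choice and nothing rests on them. All 10 passed the filter on low counts in every comparison, with counts per library from 41, the lowest of Cdkn2b, to 23121, the highest of Ccnb1.

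RNA-seq libraries came from E14TG2a, an mESC line that the study cleared of mycoplasma before use. All lines had been transfected with pX330, a CRISPR/Cas9 plasmid, and selected with puromycin. The control lines received the empty plasmid (clones #1, #4 and #7), and guides deleted part of Neil1 (clones #7, #9 and #11), Neil2 (clones #1, #11 and #14) or Apex1 (1 clone, #46, as technical duplicates). Neil1 and Neil2 are DNA glycosylases and Apex1 is the AP endonuclease of base excision repair. Each line gave samples of mESCs, of EBs after 8 days, and of EBs of the same age with 5 µM retinoic acid (RA) since day 4 (EBs + RA), a treatment that favours neural differentiation. This gave 33 libraries, with 3 clones per group and 2 Apex1 libraries per stage. The p-values for Apex1 rest on a spread pooled over the control clones and the duplicates of 1 Apex1 clone. They do not measure the spread between Apex1 clones.

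In the textbook account of G1, D-type cyclins bind CDK4 and CDK6, cyclin E and then cyclin A bind CDK2, and together these kinases phosphorylate the retinoblastoma family, which frees E2F factors to switch on genes for DNA replication. Cyclin B with CDK1 drives mitosis. The INK4 proteins, encoded by Cdkn2a and Cdkn2b, block CDK4 and CDK6, and p27, encoded by Cdkn1b, blocks cyclin E and cyclin A kinases. Mouse ES cells are known for a short G1 phase that lengthens as they differentiate.

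Gene counts summed to 21523742 to 48350904 per library, with a median of 26720028. The deletions take out only part of each target gene, so summed counts do not measure them and could not check the labels. Neil1 stood at 2.48 to 31.5 normalised counts scaled to library size (CPM) in Neil1-mutant mESCs against 7.62 to 9.85 in controls, Neil2 at 5.50 to 9.54 in Neil2-mutant mESCs against 5.74 to 15.2, and Apex1 at 73.1 to 77.2 in the libraries labelled Apex1 against 7.76 to 17.8. The last were thus higher than in controls, also in EBs (60.0 to 86.2 against 12.5 to 15.6) and in EBs + RA (56.5 to 64.3 against 12.6 to 14.4). The mESC library of Neil1 clone #11 stood apart, with counts on 287 genes of chromosome X and 0 counts on chromosome Y, against at least 807 genes and at least 3890 counts in the other 32 libraries. None of the members lies on a sex chromosome. The sum of 9 pluripotency markers was 7006 to 8281 CPM in control mESCs, 3479 to 4147 in control EBs and 256 to 326 in control EBs + RA. In bulk RNA, fewer cells of a type and less RNA of a gene per cell cannot be told apart. Control libraries serve every comparison of a stage, so the mutants' differences from control are not independent of each other.

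In control lines the levels of the D cyclins changed in different directions as the cells differentiated. Ccnd3 fell from mESCs to EBs, and Ccnd2 rose 16.3-fold from EBs to EBs + RA while Ccnd1 and Ccnd3 fell. Ccnd2, on the minus strand of chromosome 6 of NCBIM37 from 127075797 to 127101066 (ENSMUSG00000000184), is a D cyclin with high expression in neural progenitors. In clones #1, #4 and #7 it stood at 30.0, 25.9 and 28.3 CPM in mESCs, 28.1, 17.6 and 23.4 CPM in EBs and 536, 409 and 192 CPM in EBs + RA. The EBs + RA libraries were all far above every other control library, yet differed among themselves, and clone #7 was the lowest. Genes were called differentially expressed (DE) where the false discovery rate (FDR) was below 0.1 and the log2 fold change (log2FC) over 0.5 in size, by edgeR's quasi-likelihood test over all genes. By this test Ccnd2 rose from EBs to EBs + RA (log2FC = 4.03 ± 0.33 (SE), FDR = 2.36e-06) and was also above mESCs (log2FC = 3.74 ± 0.32, FDR = 1.44e-06). From mESCs to EBs it did not pass (log2FC = −0.29 ± 0.30, FDR = 0.470). The tests of Ccnd2 against mESCs used the control libraries that entered the choice of these genes, and nothing rests on them.

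**Figure D1:**
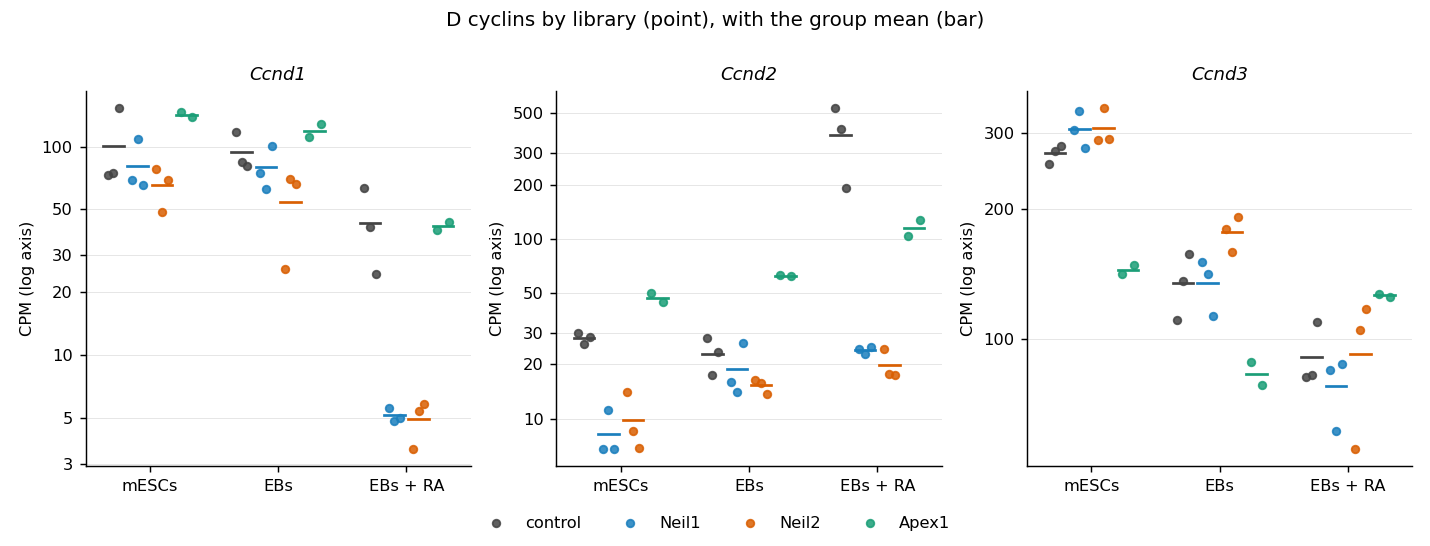
Normalised CPM (log axis) of Ccnd1, Ccnd2 and Ccnd3 in each of the 33 libraries by stage and genotype, with points for libraries and bars for group means. Ccnd2 in the 3 control EBs + RA libraries lies between 192 and 536 CPM, above every library of the mutants, while Ccnd1 in Neil1 and Neil2 EBs + RA lies at or below 5.84 CPM.

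Ccnd1 (ENSMUSG00000070348, minus strand of chromosome 7, 152115836 to 152125774), the D cyclin that mitogen signals induce in many cell types, moved the opposite way. It stood at 73.0, 74.9 and 154 CPM in mESCs, 118, 84.3 and 80.4 CPM in EBs and 63.5, 41.0 and 24.4 CPM in EBs + RA. Clone #7 was the highest of the mESC libraries and the lowest of the EBs + RA libraries, and the 3 EBs + RA values lay below all EB and mESC values. Ccnd1 fell from EBs to EBs + RA (log2FC = −1.14 ± 0.34, FDR = 0.0178) and from mESCs to EBs + RA (log2FC = −1.24 ± 0.35, FDR = 0.00773). The second of these calls did not hold without control clone #7 (FDR = 0.145), and the first did not hold without a filter on low counts (log2FC = −1.14, FDR = 0.123). EBs and mESCs overlapped (log2FC = −0.10 ± 0.34, FDR = 0.840).

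Ccnd3 (ENSMUSG00000034165, plus strand of chromosome 17, 47642000 to 47736632) was the D cyclin with the highest level per exon length in mESCs and fell at both steps. It was measured at 254, 272 and 279.6 CPM in mESCs, 110.4, 136 and 157 CPM in EBs and 81.5, 82.2 and 109 CPM in EBs + RA. All mESC libraries were above all EB libraries, and all EBs + RA libraries below the lowest EB library, that of clone #1, by little. It fell by 1.00 ± 0.15 (SE) on the log2 scale from mESCs to EBs (FDR = 0.000404) and again with RA (log2FC = −0.58 ± 0.15, FDR = 0.00916). The step with RA did not hold without control clone #4 (FDR = 0.128). Ccnd1 shares 818 exon bases with Oraov1 and Ccnd3 shares 353 with Bysl, and the library kit keeps no strand. Reads from those bases may have been left out as ambiguous, which would lower the levels of Ccnd1 and Ccnd3, or may come in part from the neighbours. The study's methods do not give the strand setting of the counting.

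Of the cyclins of the later phases, Ccne1 and Ccnb1 fell, and Ccne2 and Ccna2 were not called. Ccne1 (ENSMUSG00000002068, chromosome 7, 38883003 to 38892553), which with CDK2 takes cells into S phase, was at 191, 191 and 330.3 CPM in mESCs, 150.2, 139 and 155 CPM in EBs and 98.6, 87.1 and 90.1 CPM in EBs + RA. The mESC library of clone #7 stood well above those of the other clones, and the 3 stages did not overlap. Ccne1 fell from mESCs to EBs (log2FC = −0.69 ± 0.19, FDR = 0.0131) and from EBs to EBs + RA (log2FC = −0.70 ± 0.19, FDR = 0.0103). Without control clone #7 (log2FC = −0.40, FDR = 0.00200) the first step lay below the fold limit.

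Ccnb1 (ENSMUSG00000041431, chromosome 13, 101548605 to 101556525), the mitotic cyclin, was as high in EBs as in mESCs and lower with RA, at 449, 417 and 544 CPM in mESCs, 486, 459 and 452 CPM in EBs and 290.4, 290.3 and 274 CPM in EBs + RA. The EBs + RA libraries lay within 274 and 290.4 CPM, far below the lowest of the other 6. Ccnb1 fell from EBs to EBs + RA (log2FC = −0.72 ± 0.12, FDR = 0.000475) and from mESCs to EBs + RA (log2FC = −0.74 ± 0.12, FDR = 0.000199), while EBs and mESCs did not differ past the limits (log2FC = −0.02 ± 0.12, FDR = 0.921). Ccna2 (ENSMUSG00000027715, chromosome 3, 36463788 to 36471072), the cyclin of S phase and G2, was at 183, 182 and 258 CPM in mESCs, 241, 238 and 219.9 CPM in EBs and 186, 190.0 and 161 CPM in EBs + RA. Its 3 EBs + RA values lay below all EB values, at a difference under the fold limit (log2FC = −0.39 ± 0.15, FDR = 0.0449).

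Ccne2 (ENSMUSG00000028212, chromosome 4, 11118498 to 11131926), the second cyclin E, was less abundant than Ccne1 per length at every stage and showed no change that passed, at 16.3, 16.4 and 22.8 CPM in mESCs, 31.6, 26.9 and 18.3 CPM in EBs and 24.5, 22.5 and 14.1 CPM in EBs + RA. Clone #7 was the highest of the mESC libraries and the lowest of the EB and EBs + RA libraries. Without control clone #7 (log2FC = 0.84, FDR = 9.36e-05) Ccne2 passed the test from mESCs to EBs, and without it also from mESCs to EBs + RA (0.51, FDR = 0.00255). Ccne2 shares 609 exon bases with Ints8 and Ccna2 shares 512 with Exosc9.

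**Figure D2:**
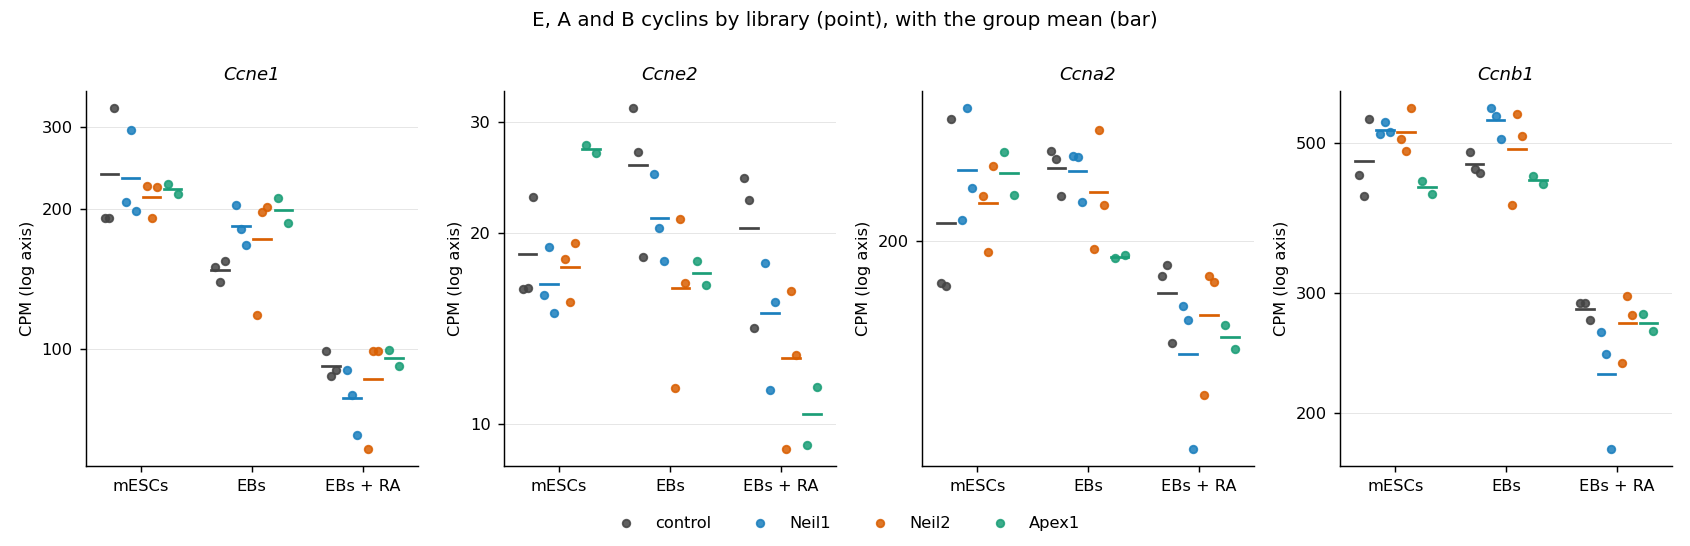
Normalised CPM (log axis) of Ccne1, Ccne2, Ccna2 and Ccnb1 in each library by stage and genotype, with points for libraries and bars for group means. Ccnb1 lies between 177 and 297 CPM in all EBs + RA libraries and between 406 and 564 CPM in all others.

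The inhibitors rose on differentiation in control lines, the INK4 genes already in EBs and Cdkn1b with RA. Cdkn2a (ENSMUSG00000044303, minus strand of chromosome 4, 88920377 to 88940557) encodes p16Ink4a and, from another first exon, p19Arf, which summed gene counts cannot separate. It stood at 9.23, 13.3 and 6.17 CPM in mESCs, 15.5, 23.4 and 16.3 CPM in EBs and 22.1, 26.3 and 26.8 CPM in EBs + RA. All EB libraries were above all mESC libraries, and EBs and EBs + RA overlapped. Cdkn2a rose from mESCs to EBs (log2FC = 0.94 ± 0.26, FDR = 0.0126) and was higher still against mESCs in EBs + RA (log2FC = 1.37 ± 0.26, FDR = 0.000586), whereas the step from EBs to EBs + RA did not pass (log2FC = 0.43 ± 0.25, FDR = 0.178).

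Cdkn2b (ENSMUSG00000073802, minus strand of chromosome 4, 88952198 to 88956941), next to Cdkn2a, encodes p15Ink4b and was the least abundant member per exon length in control mESCs, at 2.93, 3.60 and 1.61 CPM in mESCs, 4.01, 7.47 and 5.01 CPM in EBs and 7.27, 7.76 and 9.47 CPM in EBs + RA. Each EB value was above each mESC value, while EBs and EBs + RA overlapped. It rose from mESCs to EBs (log2FC = 1.01 ± 0.32, FDR = 0.0268) and from mESCs to EBs + RA (log2FC = 1.57 ± 0.32, FDR = 0.00112), but the first call did not hold without control clone #4 (FDR = 0.126). Cdkn1b (ENSMUSG00000003031, plus strand of chromosome 6, 134870419 to 134875531) stood at 31.7, 30.7 and 22.6 CPM in mESCs, 25.7, 30.6 and 27.7 CPM in EBs and 50.6, 69.4 and 42.6 CPM in EBs + RA. Only the EBs + RA libraries stood apart, and Cdkn1b rose from EBs to EBs + RA (log2FC = 0.94 ± 0.19, FDR = 0.00166) with no difference past the limits between EBs and mESCs (log2FC = −0.02 ± 0.19, FDR = 0.939).

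Because Cdkn2a and Cdkn2b were raised together in several of the comparisons, the 250 bases before their starts are shown, read from RefSeq on GRCm38.p6, where all lie on the minus strand of chromosome 4. Cdkn2a has 2 starts, and capitals mark matches, on either strand, to TTTNNCGC (an E2F-like site), GGGCGG (a GC box), CCAAT or, as the CHR element known from promoters of cell cycle genes, TTTGAA. The letters of a TATA box were searched in the same way, as TATAAA.
Cdkn2a, first window, chr4:89282193-89282442: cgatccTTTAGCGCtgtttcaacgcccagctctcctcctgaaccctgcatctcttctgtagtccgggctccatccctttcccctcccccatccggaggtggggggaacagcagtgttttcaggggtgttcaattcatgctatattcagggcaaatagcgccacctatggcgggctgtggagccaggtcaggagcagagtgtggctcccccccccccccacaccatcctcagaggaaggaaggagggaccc
Cdkn2a, second window, chr4:89294620-89294869: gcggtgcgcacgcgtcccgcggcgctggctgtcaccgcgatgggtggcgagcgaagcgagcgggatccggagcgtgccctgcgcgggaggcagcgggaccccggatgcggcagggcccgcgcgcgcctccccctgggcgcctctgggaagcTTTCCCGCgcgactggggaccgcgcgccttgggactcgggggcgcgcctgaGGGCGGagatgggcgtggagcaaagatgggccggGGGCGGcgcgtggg
Cdkn2b, chr4:89311033-89311282: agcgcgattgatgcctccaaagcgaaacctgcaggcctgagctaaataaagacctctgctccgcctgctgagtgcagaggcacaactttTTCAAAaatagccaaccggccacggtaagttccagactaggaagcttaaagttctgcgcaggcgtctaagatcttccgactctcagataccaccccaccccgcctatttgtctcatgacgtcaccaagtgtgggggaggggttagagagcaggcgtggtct

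Each Cdkn2a window held 1 E2F-like match, which 4.28% of all 32851 mouse windows of this length hold, and the second also held 2 GC boxes, found at least once in 32.7% of windows. The Cdkn2b window held neither, and had 1 CHR match, a motif in 16.0% of windows. GC content was 60.0% and 78.4% in the Cdkn2a windows and 53.6% in the Cdkn2b window, against a median of 52.4%. Windows were at hand for 6 members, and among the others shown by counts alone Ccne1 held 4 GC boxes at 76.0% GC, Ccnb1 held 3 GC boxes and 2 CCAAT boxes, and Cdkn1b held 1 GC box and 2 CCAAT boxes. CCAAT stood in 33.8% of windows, and TATAAA, in none of the members' windows, in 12.4% of all. A match is a run of letters and was not tested as a bound site.

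**Figure D3:**
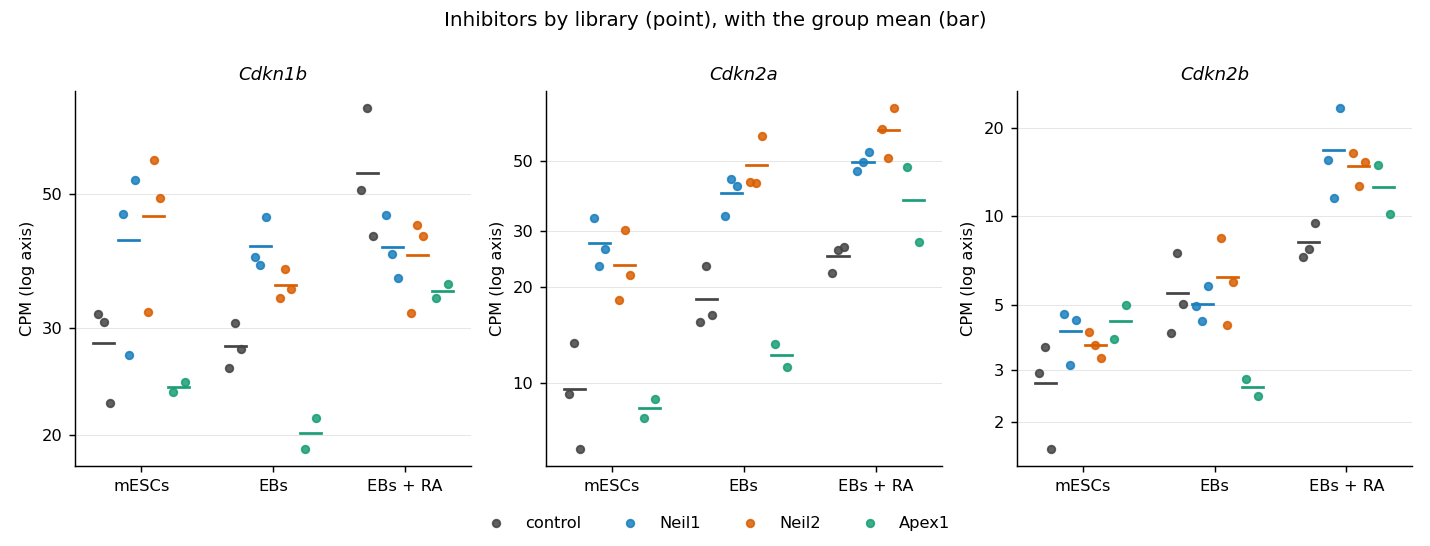
Normalised CPM (log axis) of Cdkn1b, Cdkn2a and Cdkn2b in each library by stage and genotype, with points for libraries and bars for group means. Cdkn2a lies above every control library of the same stage in all Neil1 and Neil2 libraries, with controls between 6.17 and 13.3 CPM in mESCs, 15.5 and 23.4 CPM in EBs, and between 22.1 and 26.8 CPM in EBs + RA.

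In all, 4 of the 10 members were DE between control EBs and mESCs, 2 in each direction, where 38.5% of all genes were called, 19% upward and 19.4% downward. Between EBs + RA and mESCs 8 were DE, 4 in each direction, against 60.3% of all genes, 31.1% upward and 29.2% downward. Of these 8, Ccnd2 was tested against the control mESCs that entered the choice of the genes. Between EBs + RA and EBs 6 were DE, Ccnd2 and Cdkn1b upward and 4 downward, against 43.1%, 22% upward and 21.1% downward. The median log2FC of the 10 members was −0.02, −0.05 and −0.37 in the 3 comparisons, and that of all genes −0.0074, 0.021 and −0.0017. With 3 clones a stage, these comparisons took each clone as a sample in its own right, and with the clone as a block the same 4, 8 and 6 members were called.

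Of 60 other cell cycle genes, 5 rose and 16 fell with RA in control lines, where 22% of all genes rose and 21.1% fell. The lists of these genes were also chosen with earlier results of these data known, so counts over them, here and below, are a description. From EBs to EBs + RA, of the S phase genes 0 rose and 8 fell of 18, with a median log2FC of −0.45 against −0.0017 over all genes, led by the helicase subunit Mcm6 (log2FC = −0.84 ± 0.13, FDR = 0.000324) and the licensing factor Cdc6 (log2FC = −0.69 ± 0.17, FDR = 0.00635). Of the G2 and M phase genes 1 rose and 4 fell of 16 (median −0.25), among them the spindle checkpoint kinase Bub1 (log2FC = −0.97 ± 0.13, FDR = 0.000101). The one that rose was the phosphatase Cdc25b (log2FC = 1.60 ± 0.15, FDR = 5.85e-06). The D cyclin partner Cdk6 fell (log2FC = −1.85 ± 0.25, FDR = 9.2e-05), and of the other CDK inhibitors Cdkn1c, which encodes p57, rose (log2FC = 2.00 ± 0.52, FDR = 0.00872), as did Cdkn2c, which encodes p18 (log2FC = 1.75 ± 0.39, FDR = 0.00336). Cdkn2c was low, at 0.757, 1.01 and 0.884 CPM in EBs and 2.31, 2.68 and 3.94 CPM in EBs + RA. Cdkn1a, which encodes p21, and Cdkn2d, which encodes p19Ink4d, were not called at this step. Among E2F and DP factors 2 rose and 2 fell of 10, and of the genes for turnover of cyclins and p27 0 rose and 1 fell of 6, Ccnf (log2FC = −0.67 ± 0.14, FDR = 0.00245). From mESCs to EBs, 2 of 18 S phase genes and 1 of 16 G2 and M phase genes fell and none rose (at an unadjusted p below 0.05, 0 and 1 were higher, and DESeq2 called 0). Of the other CDK inhibitors 1 rose and 0 fell of 4 at this step, where 19% of all genes rose, and DESeq2 called 1 up and 1 down. Cdkn1a stood at 71.0, 77.4 and 54.9 CPM in control mESCs and 150, 159 and 135 CPM in control EBs.

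Before differentiation, the Neil1-mutant mESCs differed from control in Ccnd2 and Cdkn2a. Ccnd2 was at 6.77, 11.1 and 6.78 CPM in Neil1 clones #7, #9 and #11 against 30.0, 25.9 and 28.3 in controls, and Cdkn2a at 33.1, 23.3 and 26.4 against 9.23, 13.3 and 6.17. For both genes, the mutant and control libraries did not overlap. Cdkn2a rose (log2FC = 1.51 ± 0.27, FDR = 0.0766). Ccnd2 was lower (log2FC = −1.78 ± 0.23, FDR = 0.0515), by a test against the control libraries that entered the choice of these genes, so the 2 members called are not read against the 1.82% of all genes called. Ccnd2 lost its call without Neil1 clone #7 (FDR = 0.173), control clone #1 (FDR = 0.188) or control clone #4 (FDR = 0.200), and Cdkn2a lost it without Neil1 clone #7 (FDR = 0.222), Neil1 clone #9 (FDR = 0.135), Neil1 clone #11 (FDR = 0.109), control clone #1 (FDR = 0.263) or control clone #4 (FDR = 0.200). Without clone #11, whose library lacked most of chromosome X, Ccnd2 kept its call. None of the other 8 members was called, nor, by edgeR or DESeq2, was any of the 60 genes of the cell cycle lists, of which 5 were raised and 3 lowered at an unadjusted p below 0.05. Cdkn1b stood at 46.3, 27.1 and 52.6 CPM against 31.7, 30.7 and 22.6 and did not pass (log2FC = 0.55 ± 0.24, FDR = 0.332).

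In Neil2-mutant mESCs, the comparison whose Ccnd2 value entered the choice of these genes, Ccnd2 stood at 14.0, 8.54 and 6.90 CPM in clones #1, #11 and #14, below all 3 controls (log2FC = −1.54 ± 0.24). Cdkn2a stood at 18.2, 30.2 and 21.9 CPM, above all controls (log2FC = 1.27 ± 0.28), and Cdkn1b at 31.9, 56.9 and 49.3 CPM (log2FC = 0.68 ± 0.21). Clone #1 had the highest Ccnd2 and the lowest Cdkn2a and Cdkn1b of the 3. Ccnd1 was at 78.4, 48.4 and 68.8 CPM against 73.0, 74.9 and 154 in controls (log2FC = −0.65 ± 0.30). For the other 6 members the log2FC lay between −0.18 and 0.41. Over all genes 1.83% were called in this comparison, or 286, a number that ran from 1 without control clone #4, Neil2 clone #11 or Neil2 clone #14 to 1494 without control clone #7. The Neil1 comparison used the same 3 control libraries.

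The mESC libraries labelled Apex1 had more Ccnd2 and less Ccnd3 than controls. Ccnd2 was at 49.9 and 44.3 CPM in the duplicates, above every control (log2FC = 0.72 ± 0.12, FDR = 0.0279), and Ccnd3 at 141 and 148 CPM against 254, 272 and 279.6 (log2FC = −0.93 ± 0.13, FDR = 0.0207). These were the 2 members called, beside 16.9% of all genes, and the test of Ccnd2 again used the control libraries that entered the choice. With the duplicates summed into 1 library neither passed (FDR = 0.324 for both), nor did Ccnd2 without Apex1 duplicate 1 (FDR = 0.407), Apex1 duplicate 2 (FDR = 0.243) or control clone #4 (FDR = 0.112), or Ccnd3 without Apex1 duplicate 1 (FDR = 0.407) or Apex1 duplicate 2 (FDR = 0.243). Without control clone #7, Ccnd1 (0.92, FDR = 3.73e-07) and Ccne2 (0.71, FDR = 4.49e-05) were called as well, and Ccne2 also by DESeq2 (0.53, FDR = 0.0823). Cdkn2a, at 7.72 and 8.89 CPM, was within the control range.

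In EBs without RA, Cdkn2a was higher than in controls in both Neil mutants, and of the D cyclins only Ccnd2 in the Neil2 mutant passed the test, close to its limits. Cdkn2a was at 33.6, 43.8 and 41.5 CPM in Neil1 EBs and 42.9, 42.7 and 59.9 in Neil2 EBs, against 15.5, 23.4 and 16.3 in controls, with no overlap. It rose in both (log2FC = 1.11 ± 0.17, FDR = 0.000916 in Neil1, log2FC = 1.41 ± 0.20, FDR = 0.00351 in Neil2) and kept the call without any single library in turn. Cdkn1b was at 39.3, 38.1 and 45.7 CPM in Neil1 EBs against 25.7, 30.6 and 27.7 and rose (log2FC = 0.56 ± 0.11, FDR = 0.00460), just past the fold limit, below which it lay without Neil1 clone #11 (log2FC = 0.47, FDR = 0.0111) or control clone #1 (log2FC = 0.49, FDR = 0.0225). In Neil2 EBs Cdkn1b, at 33.7, 37.6 and 34.9 CPM, was above all controls but not called (log2FC = 0.35 ± 0.13, FDR = 0.116). With these, 2 of 10 members were DE in Neil1 EBs, beside 23.5% of all genes, and 2 in Neil2 EBs, beside 16.3%.

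The second DE member in Neil2 EBs was Ccnd2, at 16.4, 15.7 and 13.7 CPM against 28.1, 17.6 and 23.4 in controls, where all mutant values lay below all control values and next to the lowest of them (log2FC = −0.58 ± 0.20, FDR = 0.0990). It lost the call without Neil2 clone #11 (FDR = 0.124), Neil2 clone #14 (FDR = 0.289), control clone #1 (FDR = 0.356) or control clone #7 (FDR = 0.208), and with all 33 libraries in 1 fit (FDR = 0.184), where Ccne2 was called in its place (log2FC = −0.65, FDR = 0.0670). In Neil1 EBs Ccnd2 was at 15.9, 14.0 and 26.3 CPM and overlapped the controls (log2FC = −0.29 ± 0.25, FDR = 0.433). Without Neil1 clone #11 (log2FC = −0.62, FDR = 0.0321) it was called. Ccnd1 in Neil2 EBs lay below all controls, at 25.9, 70.0 and 66.3 CPM against 118, 84.3 and 80.4, and was not called by edgeR (log2FC = −0.79 ± 0.34, FDR = 0.171) but was by DESeq2 (log2FC = −0.80, FDR = 0.0896). Ccnd3 in Neil2 EBs lay above all controls, at 180, 158 and 191 CPM against 110.4, 136 and 157. It was not called, but was without control clone #7 (log2FC = 0.53, FDR = 0.0942). The sum of the pluripotency markers was 5533 to 7032 CPM in Neil1 EBs and 5101 to 6919 in Neil2 EBs against 3479 to 4147 in control EBs, all 9 markers at 1 CPM or more in each group. Markers of early mesoderm and endothelium summed to 122 to 134 and 91.6 to 133 CPM against 241 to 321, and those of endoderm to 324 to 461 and 109 to 483 against 220.3 to 414. Their part in these results was not tested.

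In EBs labelled Apex1, Ccnd2 was higher than in controls, at 63.2 and 61.9 against 28.1, 17.6 and 23.4 CPM, and rose (log2FC = 1.43 ± 0.17, FDR = 0.000305). This call held without each of the 5 libraries in turn and with the duplicates summed. Ccnd3 fell, at 88.1 and 77.9 CPM (log2FC = −0.70 ± 0.14, FDR = 0.00568). Ccne2 fell (log2FC = −0.57 ± 0.21, FDR = 0.0635), as did Cdkn2a, at 13.3 and 11.2 CPM (log2FC = −0.59 ± 0.19, FDR = 0.0403), and Cdkn2b, at 2.80 and 2.44 CPM (log2FC = −1.06 ± 0.28, FDR = 0.0168). These 5 of 10 members stand beside 25.8% of all genes. With the duplicates summed, Ccnd2 and Ccnd3 remained DE and the other 3 did not (FDR = 0.232, 0.167 and 0.105). Ccne2 also lost its call without Apex1 duplicate 1 (FDR = 0.197), Apex1 duplicate 2 (FDR = 0.297), control clone #1 (FDR = 0.138) or control clone #4 (FDR = 0.141), Cdkn2a without Apex1 duplicate 1 (FDR = 0.110), Apex1 duplicate 2 (FDR = 0.275) or control clone #4 (FDR = 0.128), and Cdkn2b without Apex1 duplicate 2 (FDR = 0.154). Without control clone #1, Cdkn1b (−0.54, FDR = 0.0139) and Ccnd1 (0.53, FDR = 0.00408) were called as well. In the 2 libraries of Apex1 EBs pluripotency markers summed to 6969 to 6981 CPM, endoderm markers to 55.3 to 65.3 against 220.3 to 414 in controls, and markers of early mesoderm and endothelium to 156 to 166 against 241 to 321. Their part in these results was not tested.

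Among the other cell cycle genes in EBs, Cdk6 fell in Neil1 (log2FC = −1.33 ± 0.24, FDR = 0.00232) and Neil2 EBs (log2FC = −1.08 ± 0.27, FDR = 0.0324) and rose in those labelled Apex1 (log2FC = 0.82 ± 0.17, FDR = 0.00517). The pocket proteins Rb1 and Rbl2 rose in all 3, by log2FC between 0.52 and 0.75, and the polymerase subunit Pola1 rose in Neil1 (log2FC = 1.26 ± 0.09, FDR = 4.93e-06) and Neil2 EBs (log2FC = 1.00 ± 0.21, FDR = 0.0184). By edgeR and by DESeq2 no S phase gene or G2 and M phase gene fell in EBs of any mutant (at an unadjusted p below 0.05, 0, 0 and 3 S phase genes and 1, 0 and 5 G2 and M phase genes were lower in Neil1, Neil2 and Apex1), and 1 of 18 S phase genes rose in Neil1 and in Neil2 EBs. Of 16 G2 and M phase genes, 1 rose in Apex1 EBs and, by edgeR only, 1 in Neil2 EBs. Over all genes tested, 2023 of 15479 fell in Neil1 EBs, 1198 of 15575 in Neil2 EBs and 2195 of 15780 in Apex1 EBs. Median log2FC of the S phase list were 0.11, 0.018 and 0.0056 in Neil1, Neil2 and Apex1 EBs, beside −0.00058, 0.023 and −0.00015 over all genes.

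With RA, Ccnd2 and Ccnd1 of both Neil mutants were far below control. Ccnd2 stood at 24.2, 22.8 and 25.1 CPM in Neil1 EBs + RA and 24.2, 17.8 and 17.5 in Neil2 EBs + RA, against 536, 409 and 192 in controls. All 6 mutant libraries were near the level of control mESCs and EBs, and the lowest control was far above the highest mutant. Ccnd2 fell 15.7-fold in Neil1 (log2FC = −3.97 ± 0.36, FDR = 0.000281) and 18.8-fold in Neil2 (log2FC = −4.24 ± 0.38, FDR = 0.000343).

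Ccnd1 stood at 5.57, 4.82 and 4.97 CPM in Neil1 and 3.53, 5.36 and 5.84 in Neil2 EBs + RA, against 63.5, 41.0 and 24.4 in controls. The mutant libraries were alike, the controls differed more among themselves, with clone #1 the highest and clone #7 the lowest, and the groups did not overlap. Ccnd1 fell 8.33-fold in Neil1 (log2FC = −3.06 ± 0.33, FDR = 0.000521) and 8.63-fold in Neil2 (log2FC = −3.11 ± 0.36, FDR = 0.000831). Ccnd3, at 84.8, 61.1 and 87.3 CPM in Neil1, 55.5, 105 and 117 in Neil2 and 81.5, 82.2 and 109 in control EBs + RA, overlapped between groups and was not called (log2FC = −0.22 ± 0.18, FDR = 0.365 and log2FC = 0.04 ± 0.26, FDR = 0.919). The 2 calls for Ccnd1 and those for Ccnd2 held without any 1 library in each comparison.

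Both INK4 genes were higher in the Neil mutants. Cdkn2a was at 46.4, 49.5 and 53.2 CPM in Neil1 and 63.2, 51.0 and 73.6 in Neil2 EBs + RA against 22.1, 26.3 and 26.8 in controls, and Cdkn2b at 15.5, 11.5 and 23.4 and 16.4, 12.7 and 15.4 against 7.27, 7.76 and 9.47. For both genes all mutant libraries were above all controls. Cdkn2a rose in Neil1 (log2FC = 1.00 ± 0.14, FDR = 0.00173) and in Neil2 (log2FC = 1.34 ± 0.16, FDR = 0.000986), and Cdkn2b rose likewise (log2FC = 1.05 ± 0.28, FDR = 0.0207 and log2FC = 0.88 ± 0.19, FDR = 0.0100). These calls held without any 1 library in turn. Cdkn1b, at 46.2, 39.8 and 36.4 and 31.7, 44.4 and 42.5 CPM against 50.6, 69.4 and 42.6, was not called (log2FC = −0.40 ± 0.20, FDR = 0.140 and log2FC = −0.44 ± 0.20, FDR = 0.135) except without control clone #7, in Neil1 (−0.55, FDR = 0.0562) and in Neil2 (−0.59, FDR = 0.0461).

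Of the later cyclins, Ccne2 fell in Neil2 EBs + RA, at 9.12, 16.2 and 12.8 CPM against 24.5, 22.5 and 14.1 (log2FC = −0.66 ± 0.27, FDR = 0.0931). The groups overlapped, and the call was lost without Neil2 clone #1 (FDR = 0.184), Neil2 clone #14 (FDR = 0.192), control clone #1 (FDR = 0.287) or control clone #4 (FDR = 0.228). In Neil1 EBs + RA it was not called (log2FC = −0.44 ± 0.26, FDR = 0.204), but was without control clone #7 (log2FC = −0.65, FDR = 0.0576). Ccne1, Ccna2 and Ccnb1 were called in neither Neil mutant, with log2FC between −0.31 and −0.05. Ccnb1 in Neil1 clone #11 was the lowest of all libraries, at 177 CPM. Together 4 members were DE in Neil1 EBs + RA, where 41.1% of all genes were called, and 5 in Neil2 EBs + RA, beside 34.9%.

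**Figure D4:**
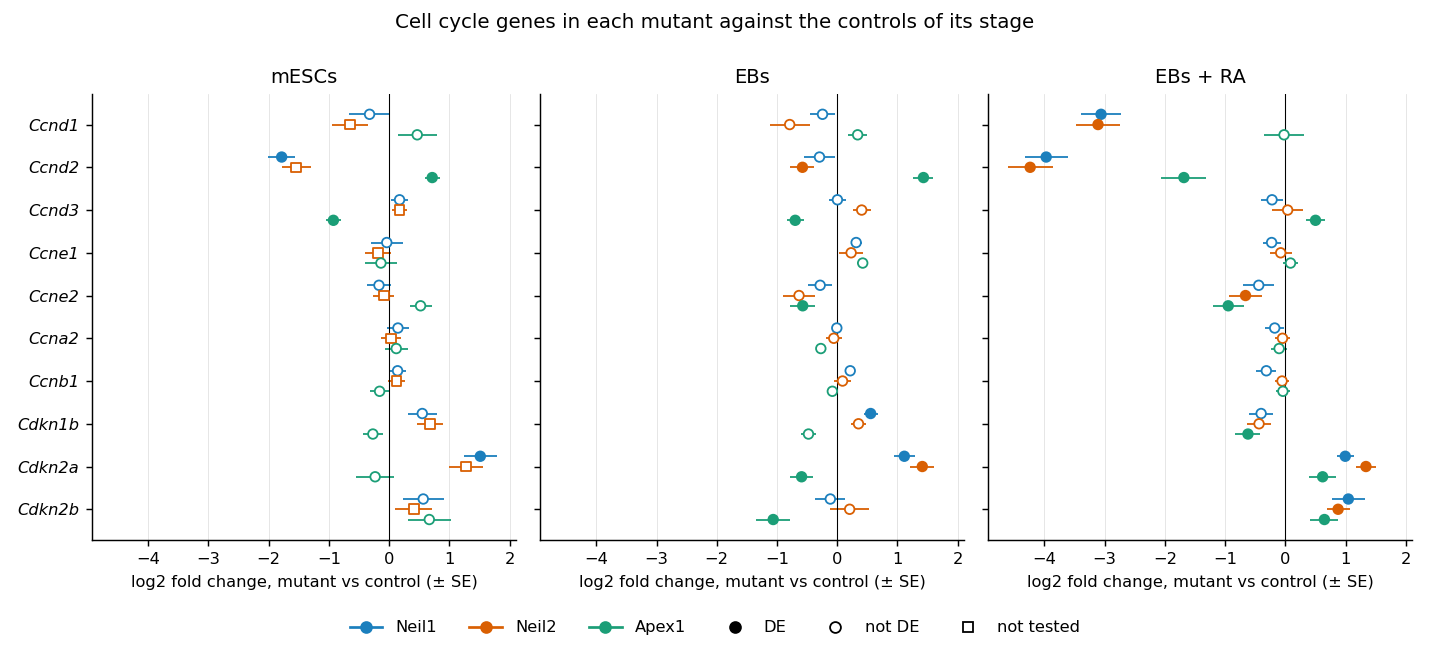
Log2 fold change of each member in each mutant against the controls of its stage (one panel per stage), with its standard error, filled where called DE, open where not, and as a square where no test was made. Ccnd2 lies at −3.97 and −4.24 and Ccnd1 at −3.06 and −3.11 in Neil1 and Neil2 EBs + RA, and no other member passes 2 in size in a mutant.

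In EBs + RA, markers of neural progenitors were lower than control in each mutant. The sum of the 7 of 8 listed markers found in the tables was 203 to 373 CPM in control EBs + RA, 29.3 to 50.9 in Neil1, 43.9 to 58.2 in Neil2 and 73.9 to 75.8 in Apex1 EBs + RA. All 7 were at 1 CPM or more in controls, and 3 of them, Hes5, Neurog2 and Fabp7, were below 1 CPM in every mutant library, with none at 0 in all libraries of a group. Neuron markers summed to 149.9 to 247 CPM in controls and to 29.5 to 36.9, 28.6 to 43.8 and 48.9 to 56.9 in Neil1, Neil2 and Apex1, and pluripotency markers to 256 to 326 in controls against 485 to 973, 556 to 1787 and 1705 to 2300.4. The same neuron markers summed to 437 to 457 CPM in control mESCs, above control EBs + RA, so their sum does not track neurons alone. Endoderm markers were at 142 to 390.1 CPM in controls and 369 to 862, 132 to 408 and 173 to 192 in the mutants. The progenitor sum was already 29.2 to 31.9 CPM in control mESCs, with 3 of the 7 markers at 1 CPM or more. In EBs without RA it was 40.9 to 52.2 CPM in controls. In mutant EBs the sum was 31.9 to 34.9 CPM in Neil1, 30.6 to 34.8 in Neil2 and 33.3 to 35.9 in Apex1, near the mESC level. The part of all these markers in the results was not tested.

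In EBs + RA labelled Apex1, Ccnd2 was between control and the Neil mutants, at 104 and 128 CPM (log2FC = −1.68 ± 0.37, FDR = 0.0172), and Ccnd1, at 39.7 and 43.3 CPM, was within the control range (log2FC = −0.02 ± 0.33, FDR = 0.973). Ccne2 fell (log2FC = −0.95 ± 0.26, FDR = 0.0352) and so did Cdkn1b, at 33.6 and 35.5 CPM (log2FC = −0.62 ± 0.21, FDR = 0.0697). Ccnd3 rose (log2FC = 0.50 ± 0.15, FDR = 0.0519), as did Cdkn2a (log2FC = 0.62 ± 0.22, FDR = 0.0885) and Cdkn2b (log2FC = 0.65 ± 0.23, FDR = 0.0848). The duplicates of the 2 INK4 genes were unlike each other, at 47.7 and 27.8 CPM for Cdkn2a and 15.0 and 10.2 for Cdkn2b. These 6 members stand beside 24.8% of all genes. None of the 6 was called with the duplicates summed into 1 library, with FDR from 0.145 to 0.280. Ccnd2 also lost its call without Apex1 duplicate 1 (FDR = 0.188), Apex1 duplicate 2 (FDR = 0.106) or control clone #4 (FDR = 0.110), and without a filter on low counts (FDR = 0.196). Ccnd3 lost its call without Apex1 duplicate 1 (FDR = 0.260), Apex1 duplicate 2 (FDR = 0.188), control clone #1 (FDR = 0.183) or control clone #4 (FDR = 0.142), and fell below the fold limit with other size factors, DESeq2 or no filter. Ccne2 lost it without Apex1 duplicate 1 (FDR = 0.265), Apex1 duplicate 2 (FDR = 0.124) or control clone #1 (FDR = 0.118), and Cdkn1b without Apex1 duplicate 1 (FDR = 0.326), Apex1 duplicate 2 (FDR = 0.224), control clone #1 (FDR = 0.131) or control clone #4 (FDR = 0.161). Cdkn2a lost it without Apex1 duplicate 1 (FDR = 0.673), control clone #1 (FDR = 0.255) or control clone #4 (FDR = 0.139), and Cdkn2b without Apex1 duplicate 1 (FDR = 0.553), Apex1 duplicate 2 (FDR = 0.105), control clone #1 (FDR = 0.249) or control clone #4 (FDR = 0.174).

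In the Neil1 mutant with RA, where 19.9% of all genes fell, listed genes of the later phases fell too, while the members Ccne1, Ccna2 and Ccnb1 were not called. Of the S phase genes 0 rose and 12 fell of 18, with a median log2FC of −0.71 against 0.0015 over all genes, led by the ribonucleotide reductase subunits Rrm1 (log2FC = −1.27 ± 0.19, FDR = 0.00226) and Rrm2 (log2FC = −1.11 ± 0.20, FDR = 0.00458). Of the G2 and M phase genes 0 rose and 9 fell of 16 (median −0.60), among them the topoisomerase Top2a (log2FC = −0.78 ± 0.14, FDR = 0.00450). Of the E2F and DP factors 0 rose and 6 fell of 10 (median −0.67), with E2f2 the most (log2FC = −1.84 ± 0.24, FDR = 0.00110). The D cyclin partner Cdk4 fell (log2FC = −1.26 ± 0.16, FDR = 0.00108), the pocket protein Rb1 rose (log2FC = 0.57 ± 0.17, FDR = 0.0311), and Skp2, which targets p27 for degradation, fell (log2FC = −1.18 ± 0.19, FDR = 0.00292). Cdkn1a rose (log2FC = 0.83 ± 0.21, FDR = 0.0161), at 158, 172 and 266 CPM against 114, 102 and 122 in controls. It was also above all controls in Neil2 EBs + RA, at 173, 123 and 153 CPM, where it was not called. In EBs + RA labelled Apex1 it stood at 228 and 186 CPM. These RNA levels do not measure the share of cells in each phase. The study's flow cytometry at the 3 stages found cell cycle profiles of Neil1 and Neil2 mutants not significantly different from control.

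In Neil2 EBs + RA genes of these lists fell as well, where 16.6% of all genes fell. Of the S phase genes 0 rose and 5 fell of 18 (median −0.42, against 0.0047 over all genes), of the G2 and M phase genes 0 rose and 4 fell of 16 (median −0.29), and of the E2F and DP factors 0 rose and 6 fell of 10 (median −0.54). Rrm1 (log2FC = −1.03 ± 0.13, FDR = 0.00116), Cdk4 (log2FC = −1.01 ± 0.13, FDR = 0.00137) and Skp2 (log2FC = −0.98 ± 0.15, FDR = 0.00272) fell, and the INK4 genes Cdkn2c (log2FC = 0.78 ± 0.27, FDR = 0.0563) and Cdkn2d (log2FC = 1.22 ± 0.32, FDR = 0.0203) rose. Both genes were low, Cdkn2c at 4.58, 4.81 and 5.80 CPM against 2.31, 2.68 and 3.94 in controls. Cdkn2d, at 1.13, 0.988 and 1.39 CPM against 0.462, 0.452 and 0.596, was near or below 1 CPM. The difference between the Neil1 and Neil2 lines was not tested. In Apex1 EBs + RA, where 10.9% of all genes fell, 0 rose and 0 fell of 18 S phase genes and 0 rose and 1 fell of 16 G2 and M phase genes, with medians of −0.14 and −0.0085, and of the E2F and DP factors 0 rose and 3 fell of 10. At an unadjusted p below 0.05, 0 of these S phase genes were higher and 3 lower, and DESeq2 called 0 and 1. Cdk6 rose in these libraries (log2FC = 1.06 ± 0.30, FDR = 0.0395). Of the other CDK inhibitors 2 rose and 0 fell of 4, where 2261 of 16239 genes rose.

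Whether the mutants answered RA differently was tested on the change from EBs to EBs + RA itself, as its difference from the change in controls, at an FDR below 0.1. The controls' own change in Ccnd2 was 4.03 ± 0.33 on the log2 scale, and that of Neil1, Neil2 and Apex1 lines 0.38 ± 0.32, 0.40 ± 0.30 and 0.89 ± 0.33. The difference from control passed in Neil1 (difference = −3.67 ± 0.45, FDR = 6.67e-05), Neil2 (difference = −3.65 ± 0.43, FDR = 2.52e-05) and Apex1 (difference = −3.14 ± 0.43, FDR = 0.000372). Ccnd1 went down by more with RA in Neil1 (−3.93 ± 0.39) and Neil2 (−3.43 ± 0.43) than in control (−1.14 ± 0.34), and this passed in both (difference = −2.81 ± 0.50, FDR = 0.00149 and difference = −2.30 ± 0.56, FDR = 0.0123), whereas Apex1 did not differ past the limit (difference = −0.38 ± 0.50, FDR = 0.705).

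The rise of Cdkn1b with RA was smaller in Neil1 (difference = −0.95 ± 0.30, FDR = 0.0347) and in Neil2 (difference = −0.77 ± 0.29, FDR = 0.0978), where its own change was 0.01 ± 0.21 and 0.19 ± 0.21. The Neil1 call was lost without Neil1 clone #11 (FDR = 0.104), control clone #1 (FDR = 0.125) or control clone #4 (FDR = 0.153), and the Neil2 call without Neil2 clone #1 (FDR = 0.104), Neil2 clone #11 (FDR = 0.136), Neil2 clone #14 (FDR = 0.207), control clone #1 (FDR = 0.257) or control clone #4 (FDR = 0.324). In Neil1, Ccnb1 went down by more (difference = −0.52 ± 0.18, FDR = 0.0536) and Cdkn2b went up by more (difference = 1.18 ± 0.43, FDR = 0.0636). Ccnb1 lost its call without Neil1 clone #9 (FDR = 0.123), Neil1 clone #11 (FDR = 0.114), control clone #1 (FDR = 0.163) or control clone #4 (FDR = 0.184). Cdkn2b lost its call without Neil1 clone #7 (FDR = 0.131), Neil1 clone #11 (FDR = 0.171), control clone #1 (FDR = 0.128) or control clone #4 (FDR = 0.286). Cdkn2a did not differ in its change with RA in Neil1 (difference = −0.11 ± 0.31, FDR = 0.847) or Neil2 (difference = −0.06 ± 0.34, FDR = 0.944) past the limit. Of the 10 members 5 differed in Neil1, beside 27.6% of all genes, and 3 in Neil2, beside 16.5%.

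In the libraries labelled Apex1, 4 members differed in their change with RA, beside 14.8% of all genes. Besides Ccnd2 these were Ccnd3, which went up there and down in controls (difference = 1.18 ± 0.21, FDR = 0.00192), Cdkn2a (difference = 1.20 ± 0.39, FDR = 0.0666) and Cdkn2b (difference = 1.70 ± 0.45, FDR = 0.0250). Ccnd3 lost its call without Apex1 duplicate 2 (FDR = 0.101), Cdkn2a without Apex1 duplicate 1 (FDR = 0.515), Apex1 duplicate 2 (FDR = 0.204), control clone #1 (FDR = 0.159) or control clone #4 (FDR = 0.141), and Cdkn2b without Apex1 duplicate 1 (FDR = 0.344), Apex1 duplicate 2 (FDR = 0.188) or control clone #4 (FDR = 0.112). In the change from mESCs to EBs, Ccnd2 differed in Neil1 (difference = 1.48 ± 0.45, FDR = 0.0772), where it went up from its low mESC level by 1.18 ± 0.32, the only member called there, in a test that includes the control mESCs of the choice, beside 7.59% of all genes. This call was lost without Neil1 clone #7 (FDR = 0.221), Neil1 clone #11 (FDR = 0.286), control clone #1 (FDR = 0.101) or control clone #4 (FDR = 0.295). In the libraries labelled Apex1, Ccne2 (difference = −1.12 ± 0.34, FDR = 0.0351) and Cdkn2b (difference = −1.75 ± 0.47, FDR = 0.0184) differed from mESCs to EBs, beside 25.8% of all genes. Ccne2 lost its call without Apex1 duplicate 1 (FDR = 0.269), Apex1 duplicate 2 (FDR = 0.245), control clone #1 (FDR = 0.162) or control clone #4 (FDR = 0.141), and Cdkn2b without Apex1 duplicate 1 (FDR = 0.148) or Apex1 duplicate 2 (FDR = 0.232). In Neil2 this change was not tested, since it contains the comparison whose value entered the choice of the members.

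Per length, as CPM per kilobase of exon, the D cyclins can be set beside each other. Ccnd3 made up 79.7 ± 5.49% (SD, n = 3) of the summed level of the 3 D cyclins in control mESCs and 67.4 ± 8.31% in control EBs, and Ccnd2 54.2 ± 14.0% in control EBs + RA. In control clone #7 with RA, however, the Ccnd3 share was above that of Ccnd2. In Neil1 and Neil2 EBs + RA Ccnd3 held the largest share, at 85.9 ± 1.88% and 88.5 ± 5.12% and Ccnd2 at 10.7 ± 1.44% and 8.61 ± 4.91%. In the libraries labelled Apex1, Ccnd2 was at 23.3 ± 2.59% (n = 2). The summed level of the 3 in EBs + RA was 118 ± 29.2 CPM per kilobase in controls, 40.0 ± 6.67 in Neil1, 45.7 ± 14.1 in Neil2 and 87.0 ± 3.07 in Apex1. A share falls where another rises, so the shares are a description of the levels above. The exon bases that Ccnd1 and Ccnd3 share with neighbours could also shift the shares.

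**Figure D5:**
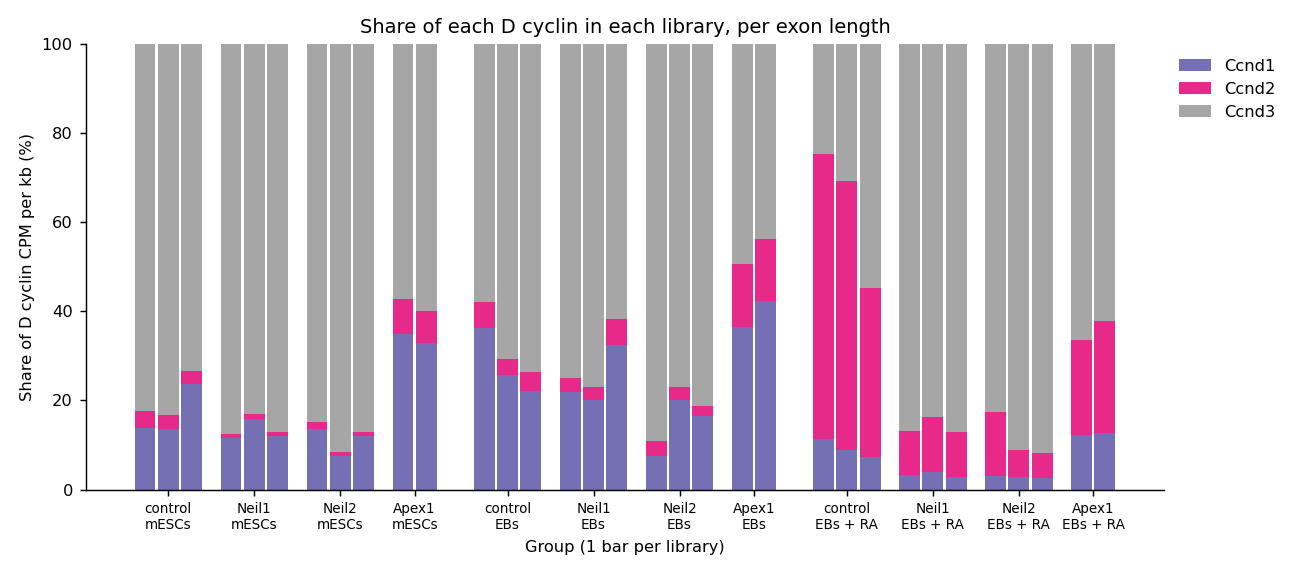
Share (percent) of Ccnd1, Ccnd2 and Ccnd3 in their summed CPM per kilobase of exon, as 1 stacked bar per library, by stage and genotype. Ccnd3 is the largest share in every group mean except control EBs + RA, where Ccnd2 averages 54.2%.

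On the same per-length scale, the order of all 10 members in control mESCs ran from Ccnd3 at 119 ± 5.77 CPM per kilobase, Ccnb1 at 111 ± 15.6 and Ccne1 at 89.2 ± 30.2 through Ccna2 at 59.2 ± 12.5 and Ccnd1 at 26.2 ± 12.0 to Cdkn2b at 1.95 ± 0.725 (SD, n = 3). The first 4 overlapped with their neighbours over the libraries, while Ccna2 was above Ccnd1 and Ccnd1 above Cdkn2a in every library. In control EBs Ccnb1 led at 110.3 ± 4.31, and in control EBs + RA Ccnb1, at 67.6 ± 2.22, and Ccnd2, at 66.5 ± 30.5, overlapped. In Neil1 and Neil2 EBs + RA Cdkn2a reached 42.5 ± 2.93 and 53.5 ± 9.68, and Ccnd1 was the lowest member at 1.34 ± 0.104 and 1.28 ± 0.318, where in controls it stood at 11.2 ± 5.11.

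Over the 33 libraries and 17964 genes, the log2 CPM most like that of Ccnd2 belonged to Pcdhb17 (r = 0.93), Vash2 (r = 0.92) and Tox (r = 0.92), by Pearson's r. For Ccnd1 they were Zfp532 (r = 0.96), Smarcd1 (r = 0.95) and 2310037I24Rik (r = 0.95), for Ccnd3 Nlrp4a (r = 0.91), Nkx6-3 (r = 0.90) and Ushbp1 (r = 0.90), and for Cdkn1b Fam92a (r = 0.82), Cryzl1 (r = 0.78) and Iqcb1 (r = 0.78). The libraries group by stage and share clones, so these values describe likeness of pattern in this set and carry no test.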

How the data were processed

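Total RNA was sequenced from 33 libraries of mouse mESCs, EBs and EBs + RA. Per the study's methods, TruSeq v2 libraries, which keep no strand, were read for 51 cycles on a HiSeq 2000, aligned to NCBIM37 with TopHat 2.0.9 and summarised with HTSeq-count 0.5.4. The authors deposited raw counts per Ensembl gene, without normalization. HTSeq's rows for reads without a gene were left out (no feature, 5.86% to 8.85% of reads; ambiguous, 1.89% to 2.88%; aligned to more than 1 place, 11.44% to 19.85%). Counting error is largest for members with low counts, such as Cdkn2b with as few as 41 in a library.

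Groups came from the sample labels. Counts were fitted with edgeR 4.0.16 in R 4.3.3 (filterByExpr, TMM, robust quasi-likelihood test, Benjamini-Hochberg adjustment over all genes tested), between stages in the 9 control libraries, between each mutant and the controls of a stage, and as a difference in stage change over all libraries of 2 genotypes. FDR is the adjusted p of this test, and standard errors were derived from the log2FC and its F statistic. CPM were scaled by TMM over all libraries, and log2 CPM had a prior count of 2. Levels per kilobase used the union of exons of the NCBIM37 annotation. The members and the gene lists were chosen with earlier results of these data known, and all members were named in each comparison. Of each list, at most 4 called genes with the largest changes and without overlap between groups could be named, plus the other CDK inhibitors. Clones pair the stages of a genotype by the labels, and same-clone deviations from the group means correlated at −0.30 to 0.35 over 27 pairs. The replicates of Neil1, Neil2 and control groups are clones, and those of Apex1 are technical. The code was tested on simulated counts. Alternatives were DESeq2 1.42.0, RLE size factors, no filter, an FDR below 0.05, all 33 libraries in 1 fit, summed Apex1 duplicates, a block on clone or replicate number, and each clone or library left out in turn. Tables were handled in Python 3.11.15 with pandas 2.3.3. Teratoma and Xenopus libraries were not analysed here.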

Additional observations from a re-analysis of the deposited data

Results flagged for a closer look

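The change of a member between stages differed between a mutant and the control lines, by the test of that difference, in the following cases, each given as mutant minus control on the log2 scale with an FDR below 0.1. For the change from EBs to EBs + RA, Ccnd2 differed by −3.67 in Neil1, −3.65 in Neil2 and −3.14 in Apex1, and Ccnd1 by −2.81 in Neil1 and −2.30 in Neil2. Cdkn1b differed by −0.95 in Neil1 and −0.77 in Neil2. Ccnb1 differed by −0.52 and Cdkn2b by 1.18 in Neil1. In Apex1, Ccnd3 differed by 1.18, Cdkn2a by 1.20 and Cdkn2b by 1.70. For the change from mESCs to EBs, Ccnd2 differed by 1.48 in Neil1, Ccne2 by −1.12 in Apex1 and Cdkn2b by −1.75 in Apex1. All of these share the control libraries, and those of Apex1 rest on technical duplicates of 1 clone. The value of Ccnd2 from mESCs to EBs rests in part on the control mESCs that entered the choice of the genes.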

How the results depend on the processing

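No called value changed sign, while 10 values that were not called did under other settings and 50 with a library left out. Over all alternatives other than leaving out a library, 887 single values kept their side of the limits, 45 no longer passed and 8 newly passed. With the Apex1 duplicates summed, the members called in Apex1 went from 2 to 0 in mESCs, from 5 to 2 in EBs and from 6 to 0 in EBs + RA, and the differences in stage change from 4 to 2 with RA and from 2 to 0 between mESCs and EBs. The summed library is then the only Apex1 sample of a stage, assumed to vary like the controls. An FDR below 0.05 left 0 of 2 members in Neil1 mESCs, 1 of 2 in Neil2 EBs, 2 of 6 in Apex1 EBs + RA, 3 of 5 differences with RA in Neil1 and 0 of 1 between Neil1 mESCs and EBs. With all 33 libraries in 1 fit Apex1 had 1 member in mESCs, 3 in EBs and 3 in EBs + RA. Without a filter, 4 differences between mESCs and EBs were called in Apex1 and 0 in Neil1. The causes were not tested. With the clone as a replicate block no call changed in 60 values, at 4, 8 and 6 members between control stages and 1, 5 and 3 differences in Neil1 and Neil2. Equal replicate numbers across genotypes are only numbers, whose deviations correlated at −0.25 to 0.32, and with this replicate block 4 members were called in Apex1 mESCs, 0 in Neil1 mESCs and 1 in Neil2 EBs.

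Leaving out 1 clone or library moved the number of members called to 3 to 4 between control EBs and mESCs, 8 to 8 between EBs + RA and mESCs and 5 to 6 between EBs + RA and EBs. In mESCs it was 0 to 2 for Neil1 and 0 to 4 for Apex1, with Ccnd2 at a log2FC of −1.88 to −1.34 in Neil2, and the genes called over the whole table ranged from 0 to 2011 in Neil1, from 1 to 1494 in Neil2 and from 0 to 6154 in Apex1, the highest each time without control clone #7. In EBs it was 1 to 2 for Neil1, 1 to 2 for Neil2 and 3 to 6 for Apex1, and in EBs + RA 4 to 6, 4 to 6 and 0 to 6. Differences in stage change ranged from 0 to 1 (mESCs to EBs) and 2 to 6 (with RA) in Neil1, 2 to 3 in Neil2 (with RA), and 0 to 5 and 1 to 5 in Apex1. Depth limits Cdkn2b most, whose lowest count was 41 in a library.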
